A study of Homo sapiens with 8 samples.

Results

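The genes described are 10 markers of the mesenchymal state: the transcription factor genes SNAI1, SNAI2, TWIST1, TWIST2, ZEB1 and ZEB2, the intermediate filament gene VIM, and the cadherin genes CDH2, CDH4 and CDH11. They were chosen by symbol and were all listed among the 25369 genes of the deposited count table. Of the 10, 9 passed the filter on low counts, as did 14016 genes in all, and CDH11 did not. The study profiled MDA-MB-231, a long-established triple-negative breast cancer cell line with a mesenchymal look, by RNA sequencing. It set 3 lines altered in SUN2, an inner nuclear membrane protein of the bridge between the nuclear lamina and the cytoskeleton, against unmodified cells. In SUN2KO the gene was knocked out, Kashlid carried a SUN2 without residues 569 to 585 and LBD a SUN2 without residues 1 to 139, and WT was left unmodified. By the series design, the Kashlid deletion was meant to cut SUN2 off from Nesprin-2G, an outer nuclear membrane protein, and the LBD deletion to cut it off from the lamins. Each group had 2 libraries. The labels give neither the cells in which the truncations were made, nor the means, nor the number of clones per line. Nor do they say whether replicate libraries are independent cultures: p-values here measure only the spread between libraries, which may be technical.

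In epithelial to mesenchymal transition (EMT), cells loosen their junctions, give up apical polarity and become motile. The SNAIL, TWIST and ZEB factors drive this programme: SNAIL and ZEB proteins bind E-box sequences in the promoters of epithelial genes such as CDH1 and recruit corepressors there. Vimentin replaces part of the keratin network, and N-cadherin (CDH2) often takes the place of E-cadherin (CDH1). MDA-MB-231 cells are widely used as a model of the mesenchymal end of this range, and vimentin filaments surround the nucleus and are coupled to it through nesprins of the nuclear envelope.

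Total counts lay between 16570099 and 18814795 per library. SUN2 itself can check the labels of altered against WT libraries, but not which altered line is which. It had 25.6 and 30.3 CPM in the SUN2KO libraries, 37.2 and 35.4 CPM in the Kashlid libraries and 32.5 and 34.6 CPM in the LBD libraries, against 83.7 and 81.9 CPM in the WT libraries. CPM are counts scaled to library size, adjusted by the TMM method. Every altered library was below both WT libraries. A count of the whole gene is blind to which stretch a transcript carries. All 8 markers of mesenchymal-type breast lines, among them the member VIM, were detected in every library. Their summed level was 1577 to 1619 CPM in SUN2KO, 1513 to 1615 in Kashlid and 1806 to 1850 in LBD, against 1837 to 1896 in WT. The hormone receptor genes ESR1 and PGR were at or near 0 in all 4 groups. Of the other luminal markers, the keratin gene KRT8 averaged 1645 ± 17.5 CPM in SUN2KO, 1119 ± 88.0 in Kashlid and 1333 ± 19.2 in LBD, against 1044 ± 28.1 in WT (SD, n = 2 each). Of 8 fibroblast markers 2 to 4 were at 0 in a library, PDGFRA in all of them, and of 4 endothelial markers 1 or 2 were at 0, KDR in all of them. Their summed levels were 121 to 146 CPM in the altered lines and 142 to 153 CPM in WT for fibroblasts, and 2.25 to 8.71 CPM in the altered lines and 2.79 to 3.18 CPM in WT for endothelium. Of 7 markers of HEK293-type cells, a line also grown for the study, 2 or 3 were at 0 in each library. The 7 summed to 314 to 350 CPM in the altered lines and 329 to 354 CPM in WT, of which the creatine kinase gene CKB gave a mean of 321 to 328 in every group. LIN28B, also of the 7, had 28, 17 and 23 reads over both libraries of SUN2KO, Kashlid and LBD, and 0 in WT. PAX8 averaged 5.10, 5.33 and 5.59 CPM in the same order, against 4.80 in WT. Of the tested markers with a mean of at least 1 CPM, the caveolin gene CAV1 (-0.56 ± 0.07, -0.88 ± 0.07 and -0.68 ± 0.07 on the log2 scale over WT in SUN2KO, Kashlid and LBD), the matrix gene TGFBI (-1.12 ± 0.07, -1.18 ± 0.07 and -0.95 ± 0.07), the luminal gene MLPH (-2.54 ± 0.28, -1.16 ± 0.24 and -1.38 ± 0.25) and the tubulin gene TUBB2B (-0.76 ± 0.17, -0.95 ± 0.17 and -0.82 ± 0.17) fell in all 3 lines (adjusted p of at most 0.00129, edgeR's quasi-likelihood test with Benjamini-Hochberg adjustment). FOXA1, a luminal pioneer factor, rose in all 3 (0.70 ± 0.13, 0.55 ± 0.13 and 0.67 ± 0.13), and the secreted luminal proteins AGR2 and TFF1 rose in Kashlid (2.58 ± 0.38 and 0.98 ± 0.31) and LBD (2.46 ± 0.39 and 1.54 ± 0.29, adjusted p of at most 0.0124, edgeR). DCN, the fibroblast proteoglycan decorin, fell in SUN2KO (-0.87 ± 0.14) and rose in Kashlid (0.32 ± 0.12) and LBD (0.35 ± 0.12, adjusted p of at most 0.0394, edgeR). CAV2 fell in Kashlid (-0.30 ± 0.08) and LBD (-0.28 ± 0.08), while the hyaluronan receptor gene CD44 (0.31 ± 0.05) and the endothelial adhesion gene PECAM1 (1.36 ± 0.43) rose in LBD (adjusted p of at most 0.0152, edgeR). The part of any of these cell types in the results below was not tested.

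In the SNAIL family, SNAI1 was lower in SUN2KO and SNAI2 in LBD. SNAI1 (chromosome 20, 48599513 to 48605420 on hg19) encodes SNAIL, the direct repressor of CDH1. Its level was 5.14 and 4.94 CPM in SUN2KO, 7.46 and 7.27 in Kashlid, with 7.52 and 5.86 in LBD, against 7.91 and 8.07 in WT, from 92 to 142 reads per library. Both SUN2KO libraries were below all the others, and the Kashlid and LBD libraries were also below both WT libraries, but by less. SNAI1 was 1.58-fold lower in SUN2KO than in WT (log2 fold change -0.66 ± 0.18 SE, adjusted p = 0.00545, edgeR's quasi-likelihood test with Benjamini-Hochberg adjustment over all genes tested). It did not pass in Kashlid (-0.12, 95% interval -0.47 to 0.24) or LBD (-0.25, 95% interval -0.61 to 0.10). In these bulk libraries, fewer cells that express a gene and less RNA per cell cannot be told apart.

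SNAI2 (chromosome 8, 49830239 to 49833999) encodes SLUG, the family member of basal and stem-like breast cells. It stood at 13.9 and 11.9 CPM in SUN2KO, 17.5 and 10.97 in Kashlid, with 10.3 and 8.55 in LBD, against 15.1 and 17.0 in WT. The LBD libraries were the lowest of the 8, and of the Kashlid libraries 1 was above and 1 below both WT libraries. SNAI2 was 1.70-fold lower in LBD than in WT (-0.77 ± 0.17, adjusted p = 0.00128, edgeR). In Kashlid it did not pass (-0.17 ± 0.16, adjusted p = 0.413, edgeR), and this value rested on the library taken: it was -0.55 (adjusted p = 0.00975) without Kashlid replicate 1 and 0.12 (adjusted p = 0.568) without replicate 2. In SUN2KO it did not pass either (-0.32 ± 0.16, adjusted p = 0.142, edgeR), though the adjusted p was 0.0482 without Kashlid replicate 1 and 0.0455 without Kashlid replicate 2.

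The TWIST genes moved in opposite directions. TWIST1 (chromosome 7, 19155091 to 19157295), a basic helix-loop-helix factor of mesoderm and neural crest, was at 3.36 and 3.22 CPM in SUN2KO, 3.06 and 2.99 in Kashlid, with 4.28 and 4.07 in LBD, against 5.35 and 5.11 in WT. All 6 altered libraries were below both WT libraries. TWIST1 was 1.73-fold lower in Kashlid (-0.79 ± 0.22, adjusted p = 0.00552) and 1.59-fold lower in SUN2KO (-0.67 ± 0.21, adjusted p = 0.0174, edgeR for both), and did not pass in LBD (-0.33 ± 0.21, adjusted p = 0.231, edgeR). With 51 to 90 reads per library the SUN2KO call was fragile: its adjusted p was 0.0626 without SUN2KO replicate 1, 0.0828 without SUN2KO replicate 2, 0.0860 without WT replicate 1, 0.0567 without WT replicate 2 and 0.0695 in DESeq2.

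TWIST2 (chromosome 2, 239756673 to 239832244), a close paralog of TWIST1 with a role in dermis, was at 12.8 and 11.7 CPM in SUN2KO, 10.3 and 9.85 in Kashlid, with 9.20 and 10.2 in LBD, against 8.08 and 7.73 in WT. Here all 6 altered libraries were above both WT libraries. TWIST2 was 1.55-fold higher in SUN2KO (0.63 ± 0.14, adjusted p = 0.00124, edgeR). It missed the threshold in Kashlid (0.35 ± 0.14, adjusted p = 0.0532) and in LBD (0.30 ± 0.14, adjusted p = 0.111, edgeR for both). In Kashlid edgeR called it when scaled by library size alone (0.39, adjusted p = 0.0323) and with a stricter filter (0.36, adjusted p = 0.0486). With the median of fixed 5 Mb windows taken out it was called in Kashlid (0.59, adjusted p = 0.00266) and in LBD (0.50, adjusted p = 0.0107, edgeR), and with the median of the genes within 5 Mb either side in neither.

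ZEB1 (chromosome 10, 31608101 to 31818742), a zinc-finger and homeodomain repressor that shuts off CDH1 and the miR-200 family, was lower in all 3 lines. It stood at 23.3 and 24.99 CPM in SUN2KO, 27.5 and 26.3 in Kashlid, with 26.9 and 25.5 in LBD, against 35.3 and 31.5 in WT. No altered library reached the lower WT library. The log2 fold change was -0.47 ± 0.09 in SUN2KO (adjusted p = 0.000478), -0.31 ± 0.09 in Kashlid (adjusted p = 0.00959) and -0.35 ± 0.09 in LBD (adjusted p = 0.00496, edgeR for all), or 1.38-fold, 1.24-fold and 1.27-fold lower. Without WT replicate 1, the higher WT library, Kashlid was at -0.22 (adjusted p = 0.137) and LBD at -0.26 (adjusted p = 0.0907), and without Kashlid replicate 2 Kashlid was at -0.28 (adjusted p = 0.0501).

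ZEB2 (chromosome 2, 145268952 to 145277958), the sister factor, showed no difference that passed: 22.1 and 20.9 CPM in SUN2KO, 24.5 and 21.8 in Kashlid, with 18.9 and 22.3 in LBD, against 22.8 and 23.7 in WT. The 95% intervals of the log2 fold change were -0.33 to 0.11 in SUN2KO, -0.23 to 0.21 in Kashlid and -0.40 to 0.05 in LBD, so a change of 1.5-fold lies outside all 3. The interval deposited for ZEB2 spans 9007 bases, 6.62% of its span in RefSeq on GRCh38.p14. Whether reads were counted over that interval alone is not given, so its level may be that of a small piece of the locus. For TWIST1 the deposited span was 2205 bases, 48.0% of that in RefSeq, and for the other members it was 92.7% to 121% of it.

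VIM (chromosome 10, 17270258 to 17279592) encodes vimentin, the intermediate filament of mesenchymal cells, and was the most precisely measured of the genes, with 4857 to 7177 reads per library. It was at 302 and 297 CPM in SUN2KO, 281 and 319 in Kashlid, with 333 and 341 in LBD, against 399.8 and 408 in WT. All altered libraries were below both WT libraries, and LBD lay between WT and the other lines. VIM was 1.35-fold lower in SUN2KO (-0.43 ± 0.05, adjusted p = 1.93e-06), 1.35-fold lower in Kashlid (-0.43 ± 0.05, adjusted p = 1.44e-06) and 1.20-fold lower in LBD (-0.26 ± 0.05, adjusted p = 0.000476, edgeR for all). These calls held without any 1 library, with adjusted p of at most 0.0104.

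**Figure D1:**
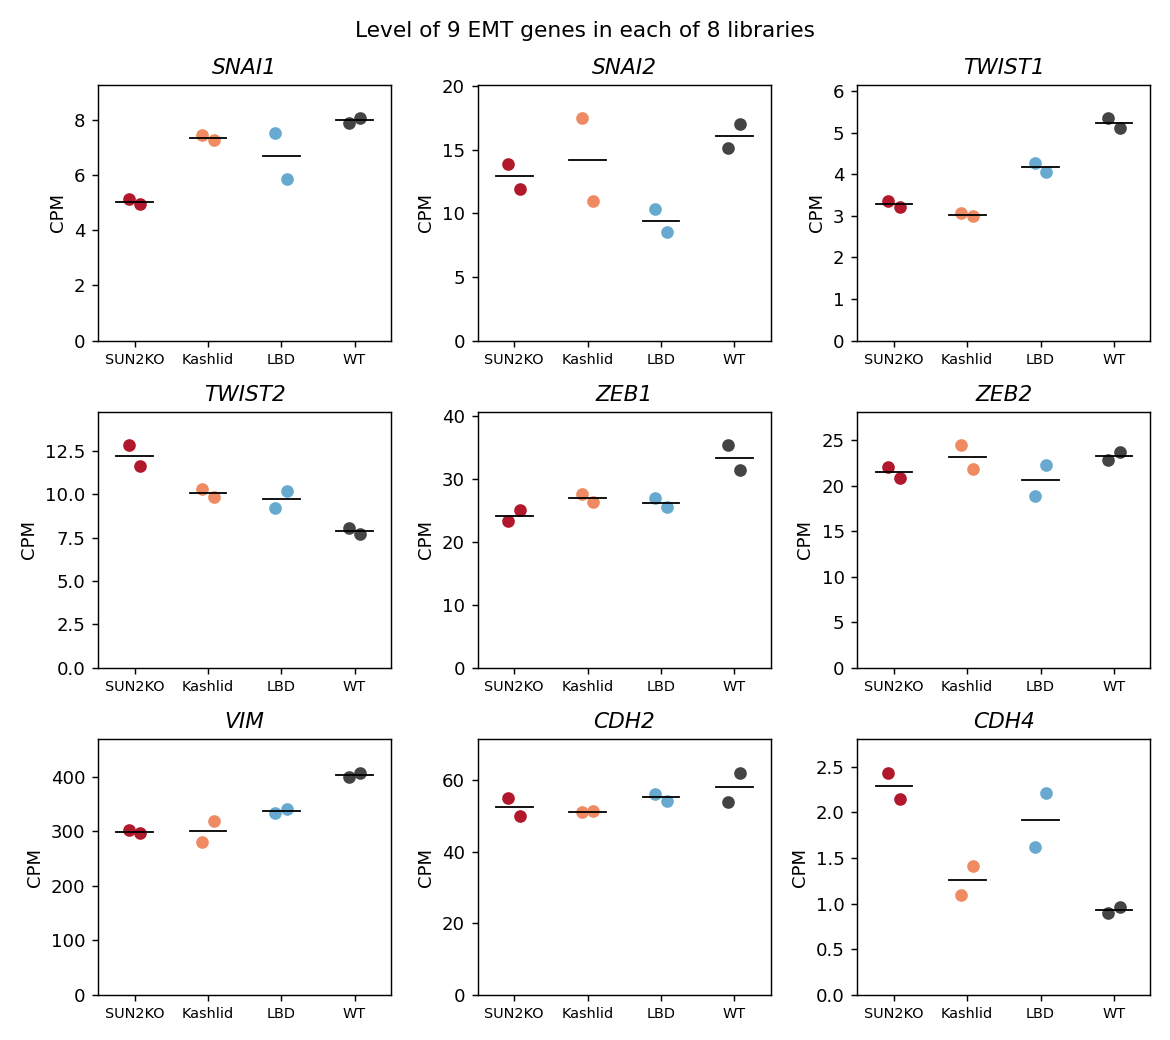
Level in CPM (vertical axes, from 0) of the 9 tested EMT genes in each of the 8 libraries, with SUN2KO, Kashlid, LBD and WT from left to right; points are libraries and bars group means. VIM, ZEB1 and TWIST1 lie highest in WT, whereas TWIST2 and CDH4 lie lowest there.

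Of the cadherins, CDH2 (chromosome 18, 25530930 to 25757445), N-cadherin, was at 55.1 and 50.1 CPM in SUN2KO, 51.1 and 51.4 in Kashlid, with 56.3 and 54.3 in LBD, against 54.0 and 62.1 in WT. 1 WT library was the highest of the 8 and the other lay among the altered ones, and no comparison with WT passed in the fit as designed. With the median of fixed 5 Mb windows taken out, CDH2 was called lower in all 3 lines, at -0.25 in SUN2KO (adjusted p = 0.0165), -0.54 in Kashlid (adjusted p = 1.15e-05) and -0.23 in LBD (adjusted p = 0.0248, edgeR). With the median of the genes within 5 Mb either side taken out it was called in none. Without either correction, the closest was Kashlid (-0.18 ± 0.08, adjusted p = 0.0610, edgeR), which became -0.28 (adjusted p = 0.0212) without WT replicate 1. CDH4 (chromosome 20, 59827482 to 60515673), the retinal cadherin, was near the lower limit of measurement: 45 and 40 reads in SUN2KO, 19 and 24 in Kashlid, with 28 and 37 in LBD, against 15 and 17 in WT. Every altered library was above both WT libraries. CDH4 was 2.46-fold higher in SUN2KO (1.30 ± 0.35, adjusted p = 0.00648) and 2.05-fold higher in LBD (1.04 ± 0.37, adjusted p = 0.0288), and did not pass in Kashlid (0.43 ± 0.39, adjusted p = 0.398, edgeR for all). In LBD the adjusted p was 0.197 without LBD replicate 2, 0.122 without WT replicate 1, 0.0907 without WT replicate 2 and 0.0935 in DESeq2. CDH11 (chromosome 16, 64980683 to 65155919), osteoblast cadherin, which is known from invasive breast cancer lines, had 0 reads in all 8 libraries. A count of 0 allows up to 3 reads, or 0.161 to 0.179 CPM in a library, counting error only.

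Counted together, 6 of the 9 tested members changed in SUN2KO, 2 higher and 4 lower, where 36.7% of all tested genes changed (17.5% higher, 19.1% lower). In Kashlid 3 changed, all lower, where 44.5% of all tested genes changed (21.7% higher, 22.7% lower). In LBD 4 changed, 1 higher and 3 lower, where 40% did (19% higher, 21% lower). The Kashlid count is thus below that background and the LBD count near it. The members' median log2 fold change was -0.32 in SUN2KO, -0.17 in Kashlid and -0.25 in LBD, beside 0.00, 0.01 and 0.00 for all tested genes. Without WT replicate 1 the LBD count was 2. VIM and ZEB1 were the members lower in all 3 lines. The 3 comparisons share the WT libraries, so a low or high value there enters each of them. The authors' deposited tables give the same direction for all 9 members, but an adjusted p above 0.05 for SNAI1 (0.053), TWIST1 (0.132) and CDH4 (0.0654) in SUN2KO. For TWIST1 (0.0824) and ZEB1 (0.0879) in Kashlid, and CDH4 (0.212) in LBD, the authors' deposited tables are above 0.05 as well.

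**Figure D2:**
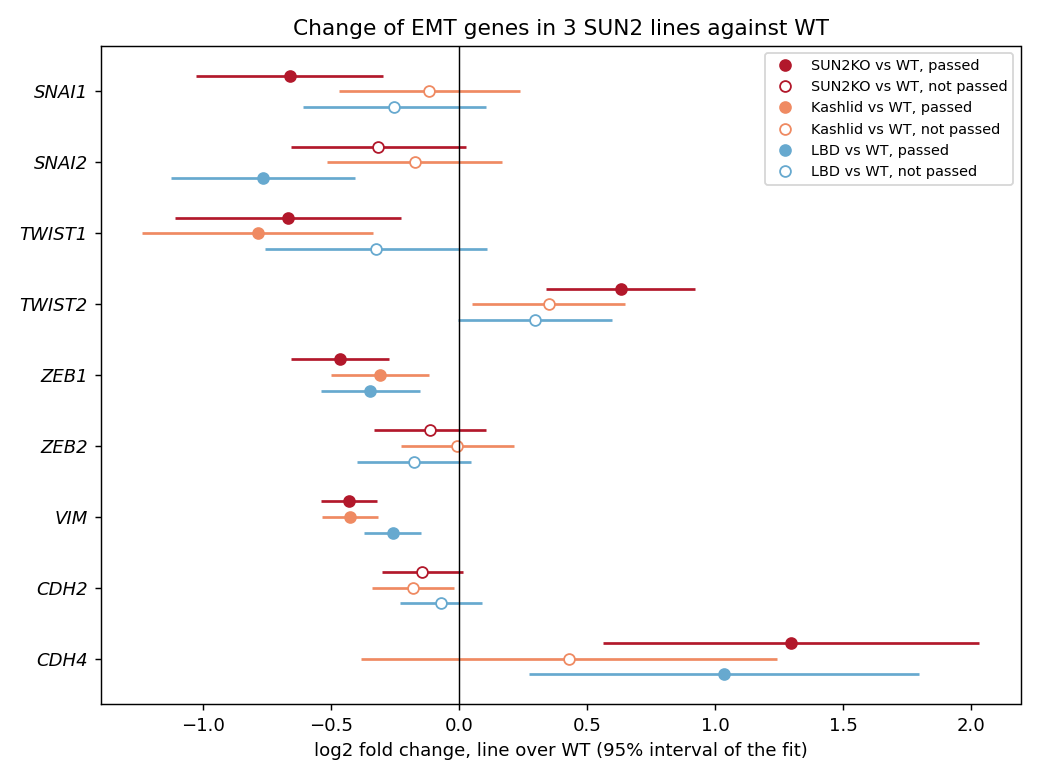
Log2 fold change of each member (horizontal axis) in SUN2KO, Kashlid and LBD over WT, with bars for the 95% interval of the edgeR fit; filled points passed at adjusted p under 0.05. VIM and ZEB1 lie left of 0 in all 3 lines with short bars, and CDH4 lies right of 0 with the longest bars.

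The lines were also set against each other, the direct test of whether they differ. Against SUN2KO, SNAI1 was 1.46-fold higher in Kashlid (0.55 ± 0.18, adjusted p = 0.0366, edgeR), the 1 member of 9 to pass, where 18% of all tested genes did (8.92% higher, 9.13% lower). That call was lost in most refits: the adjusted p was 0.135 without SUN2KO replicate 1, 0.153 without SUN2KO replicate 2, 0.106 without Kashlid replicate 1, 0.0704 without Kashlid replicate 2, 0.0521 without WT replicate 1, 0.0506 without WT replicate 2 and 0.120 in DESeq2. SNAI2 in Kashlid over SUN2KO did not pass (0.14, adjusted p = 0.614, edgeR), but did without Kashlid replicate 2 (0.44, adjusted p = 0.0474).

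VIM was 1.13-fold higher in LBD than in SUN2KO (0.17 ± 0.05, adjusted p = 0.0349, edgeR), again 1 member of 9, where 13.5% of all tested genes passed (6.69% higher, 6.79% lower). Its adjusted p was 0.145 without SUN2KO replicate 1, 0.190 without SUN2KO replicate 2, 0.0706 without LBD replicate 1, 0.212 without LBD replicate 2 and 0.0539 without WT replicate 1. SNAI2 in LBD over SUN2KO (-0.45 ± 0.18, adjusted p = 0.0991, edgeR) passed without Kashlid replicate 1 (0.0269) or Kashlid replicate 2 (0.0253). Between LBD and Kashlid 0 of 9 members passed in edgeR, and 0 in DESeq2, where 2.91% of all tested genes passed in edgeR (1.63% higher, 1.28% lower), and 2 members had an unadjusted p under 0.05. These were SNAI2 (-0.59 ± 0.17, adjusted p = 0.0713) and VIM (0.17 ± 0.05, adjusted p = 0.0953, edgeR), which reached 0.00087 and 0.00137 without Kashlid replicate 2. For ZEB1 the 95% interval between LBD and Kashlid was -0.24 to 0.16, and for VIM between Kashlid and SUN2KO it was -0.11 to 0.11.

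VIM and ZEB1, the members lower in all 3 lines, lie on the same arm of chromosome 10, and most of their neighbours were lower too. Among the 33 other tested genes that start within 5 Mb of VIM, 23 fell and 0 rose in SUN2KO, 20 fell and 0 rose in Kashlid, and 23 fell and 0 rose in LBD. Their median log2 fold change was -0.51, -0.52 and -0.59 in the same order, lower than that of VIM itself. Around ZEB1, of 31 other genes 22 fell in each line, 2 rose in SUN2KO, 1 in Kashlid and 2 in LBD, and the medians were -0.54, -0.54 and -0.60. From 18 Mb before the VIM start to 25 Mb after it, a stretch chosen after its values were seen, 116 other genes were tested. Of these, 66.4% fell in SUN2KO, 64.7% in Kashlid and 62.9% in LBD, where 19.1%, 22.7% and 21% of all tested genes fell. In the same order 6, 6 and 5 of the 116 rose, where 17.5%, 21.7% and 19% of all rose. Between the lines the medians around VIM were 0.03 for Kashlid over SUN2KO, -0.08 for LBD over SUN2KO and -0.06 for LBD over Kashlid, and around ZEB1 -0.04, -0.06 and 0.02.

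**Figure D3:**
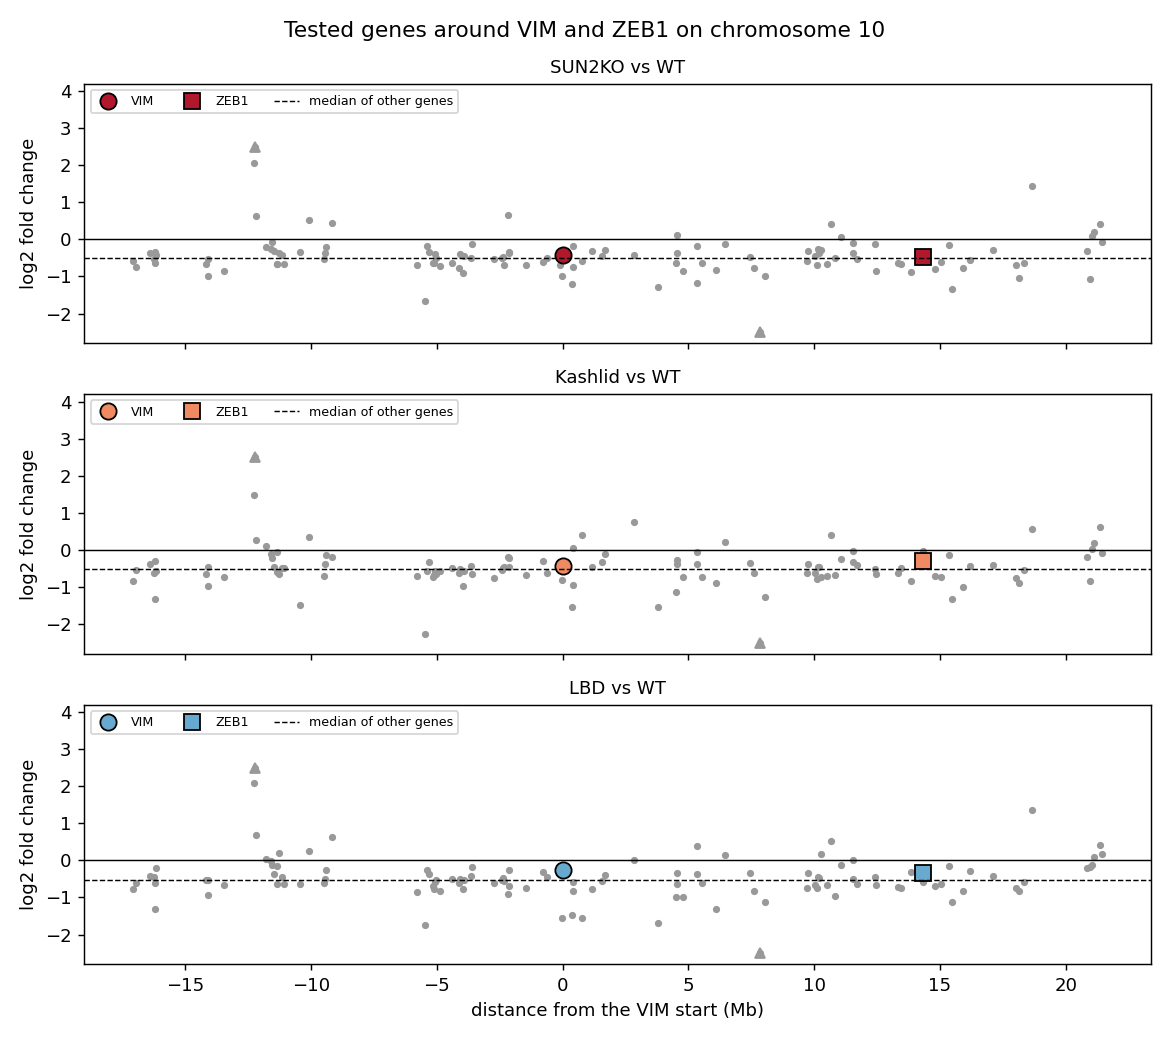
Log2 fold change over WT (vertical axes) of every tested gene from 18 Mb before to 25 Mb after the VIM start (horizontal axis, Mb from that start), with panels for SUN2KO, Kashlid and LBD; VIM and ZEB1 are marked and the dashed line is the median of the other genes. Most genes lie below 0 in each panel, with medians of -0.50, -0.52 and -0.54, though 6, 6 and 5 of the other genes were called higher. VIM and ZEB1 lie below 0 but above the dashed median in each panel. Triangles mark genes whose change lies beyond the limit drawn.

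Set against that neighbourhood, the decrease of VIM and ZEB1 was not seen. With the median of the genes within 5 Mb taken out of the fit, an alternative chosen after seeing the data, VIM was at 0.08 in SUN2KO (adjusted p = 0.318), 0.10 in Kashlid (adjusted p = 0.161) and 0.33 in LBD (adjusted p = 5.28e-05, edgeR). ZEB1 was at 0.08 (adjusted p = 0.595), 0.23 (adjusted p = 0.0591) and 0.25 (adjusted p = 0.0480) in the same order. With fixed 5 Mb windows in place of moving ones, VIM was at 0.07 (adjusted p = 0.372), 0.02 (adjusted p = 0.774) and 0.42 (adjusted p = 2.69e-06), and ZEB1 at 0.16 (adjusted p = 0.205), 0.33 (adjusted p = 0.00782) and 0.28 (adjusted p = 0.0257, edgeR). Both corrections thus called VIM and ZEB1 higher in LBD, and ZEB1 in Kashlid was called higher with fixed windows only. In LBD 30 of the 33 neighbours of VIM and 22 of the 31 of ZEB1 had a lower fold change than the gene itself. For ZEB1 in Kashlid it was 25 of 31. Every fit with a median taken out treats that median as exact. Its adjusted p-values therefore leave out the error of the median and the spread among neighbours. Why this stretch was lower was not tested.

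The other members split by the same measure. SNAI2 and TWIST1 also had lower neighbours: 8, 7 and 9 of the 10 genes near SNAI2 fell in SUN2KO, Kashlid and LBD (medians -0.38, -0.32 and -0.54), and 13, 14 and 12 of 26 near TWIST1 (medians -0.38, -0.26 and -0.30). Relative to them SNAI2 in LBD was at -0.23 (adjusted p = 0.344), TWIST1 in SUN2KO at -0.29 (adjusted p = 0.349) and TWIST1 in Kashlid at -0.53 (adjusted p = 0.0613, edgeR), so that none of the 3 calls was kept. SNAI1, TWIST2 and CDH4 had neighbours near 0. The medians in SUN2KO, Kashlid and LBD were -0.10, -0.04 and -0.05 over 66 genes near SNAI1, 0.06, 0.01 and 0.01 over 47 near TWIST2, and -0.07, 0.01 and -0.02 over 80 near CDH4. In SUN2KO 3 of the 66 neighbours of SNAI1 had a lower fold change than it, 43 of 47 lay below TWIST2 and all 80 below CDH4, and the SUN2KO calls of these 3 genes were kept. CDH2 had medians of -0.15, -0.09 and -0.18 over 22 genes, and ZEB2 0.17, 0.17 and 0.07 over 7 genes.

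**Figure D4:**
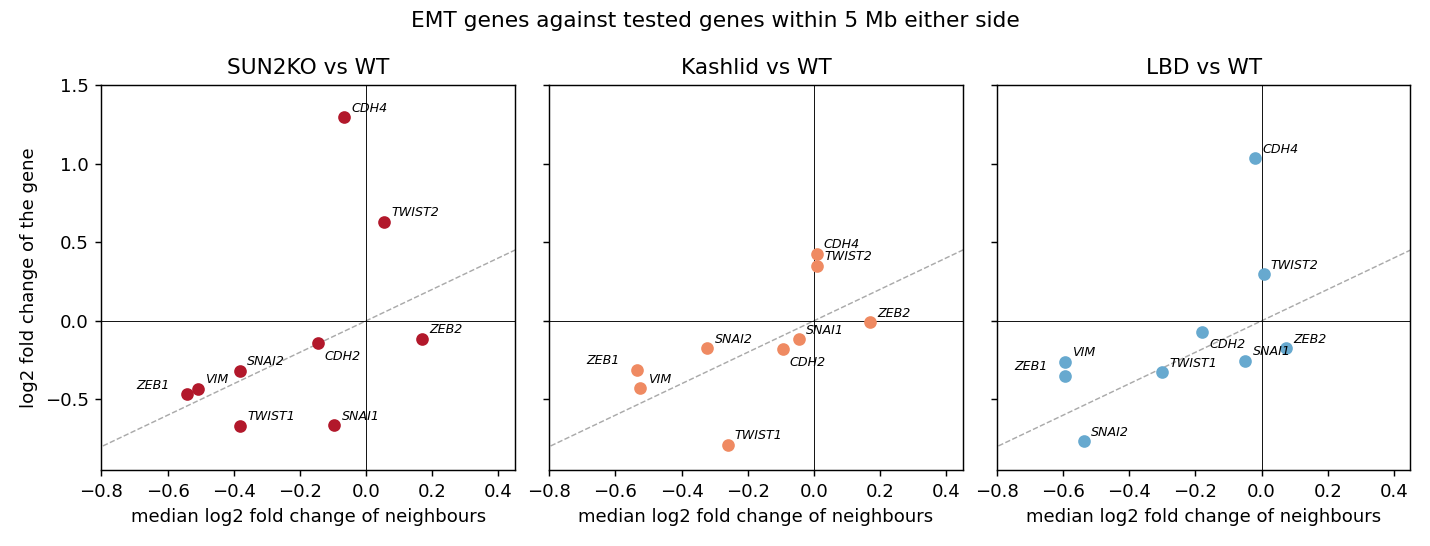
Log2 fold change of each member over WT (vertical axis) against the median log2 fold change of the tested genes within 5 Mb (horizontal axis), with panels for SUN2KO, Kashlid and LBD; the dashed line marks equal values. VIM, ZEB1, SNAI2 and TWIST1 lie to the left, where neighbours were lower, whereas CDH4, TWIST2 and SNAI1 lie near 0 on the horizontal axis.

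The start regions of VIM and ZEB1 are shown because the same stretch of chromosome 10 holds both and because E-boxes are the sites that EMT factors read. Of the windows listed for a gene, the one with the most E-boxes was taken. They are RefSeq windows on GRCh38.p14 from 250 bases before to 50 after the start, VIM at chr10:17227991-17228290 and ZEB1 at chr10:31318966-31319265, both on the plus strand. Capitals mark the E-box CACCTG or its reverse complement CAGGTG, found 0 times in the VIM window and 3 times in the ZEB1 window. VIM had a single window listed, whereas ZEB1 had several, most of them without a match, so these counts are not alike.
VIM: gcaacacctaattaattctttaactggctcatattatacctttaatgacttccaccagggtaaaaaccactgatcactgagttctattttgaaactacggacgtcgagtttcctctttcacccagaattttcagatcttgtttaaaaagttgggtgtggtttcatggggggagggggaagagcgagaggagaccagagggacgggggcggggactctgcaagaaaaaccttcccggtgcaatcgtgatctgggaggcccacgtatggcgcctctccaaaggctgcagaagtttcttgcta
ZEB1: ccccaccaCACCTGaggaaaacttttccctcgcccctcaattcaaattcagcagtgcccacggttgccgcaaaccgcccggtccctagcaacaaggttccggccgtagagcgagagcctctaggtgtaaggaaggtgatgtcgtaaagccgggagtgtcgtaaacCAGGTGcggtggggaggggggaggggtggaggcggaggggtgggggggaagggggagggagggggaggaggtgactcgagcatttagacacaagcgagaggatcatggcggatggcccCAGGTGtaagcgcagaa
At least 1 such E-box lies in 20.6% of all 35116 windows. Of the 10 members 6 had entries in the table, with 14 windows between them, of which 3 held a match, at ZEB1 and CDH4. SNAI1, SNAI2, TWIST1 and CDH11 had none. A match is a string of letters and not a bound site.

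Among the listed genes that EMT factors are known to repress, no call of the fit as designed was a decrease. The list was chosen with earlier results of these data known. Of epithelial genes outside it, KRT81 fell in every line and JUP and KRT7 in Kashlid and LBD, while KRT15 and KRT17 rose in every line (values below). Of 22 tested epithelial genes, 10 rose and 0 fell in SUN2KO, where 17.5% of all tested genes rose, with a median log2 fold change of 0.61. In Kashlid 12 rose and 0 fell (21.7% of all genes rose, list median 0.38), and in LBD 13 rose and 0 fell (19% of all genes rose, list median 0.46). With the neighbours' median taken out, 12, 13 and 13 rose and 0 fell in the same order, whereas in DESeq2 10, 10 and 12 rose and 0 fell. CLDN7, a tight junction claudin, averaged 31.8 ± 3.62 CPM in SUN2KO, 36.4 ± 2.10 in Kashlid and 28.5 ± 1.91 in LBD, against 9.97 ± 1.57 in WT (SD, n = 2 each). The log2 fold changes of CLDN7 were 1.67 ± 0.12, 1.87 ± 0.12 and 1.51 ± 0.12 (adjusted p of at most 4.19e-09, edgeR). SPINT1, an inhibitor of the matriptase protease, rose by 1.78 ± 0.17, 1.77 ± 0.17 and 1.76 ± 0.17, and ST14, which is matriptase, by 1.14 ± 0.22, 0.97 ± 0.23 and 1.00 ± 0.22 (adjusted p of at most 0.00151, edgeR). EPCAM, an epithelial adhesion molecule, rose by 1.34 ± 0.20, 0.60 ± 0.22 and 0.68 ± 0.22 (adjusted p of at most 0.0289, edgeR). MAL2, a protein of apical transport, rose in Kashlid (0.74 ± 0.06) and LBD (0.80 ± 0.06, adjusted p of at most 4.28e-09, edgeR).

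CDH1 itself, the classical target, was barely measured: 0.969 ± 0.453 CPM in SUN2KO, 1.45 ± 0.315 in Kashlid and 1.06 ± 0.225 in LBD, against 0.581 ± 0.0186 in WT. It passed in Kashlid (1.31 ± 0.47, adjusted p = 0.0263, edgeR) and not in SUN2KO (adjusted p = 0.262) or LBD (adjusted p = 0.179). CLDN7 is shown as an example of the listed genes that rose in all 3 lines, SPINT1, ST14 and EPCAM being others. Its window with the most E-boxes lies at chr17:7262429-7262728 on the minus strand of GRCh38.p14 and holds 5, in capitals.
CLDN7: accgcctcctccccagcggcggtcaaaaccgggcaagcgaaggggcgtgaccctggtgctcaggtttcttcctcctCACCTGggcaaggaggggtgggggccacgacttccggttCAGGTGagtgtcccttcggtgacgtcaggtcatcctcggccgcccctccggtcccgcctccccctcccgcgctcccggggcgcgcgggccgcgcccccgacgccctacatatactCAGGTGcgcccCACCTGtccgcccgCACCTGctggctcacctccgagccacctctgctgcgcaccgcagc
Of the 22 tested epithelial genes 12 had an entry, and 7 of these held at least 1 E-box, against 24.1% of all 27305 genes in the table, a difference not tested here. The tight junction genes OCLN and MARVELD3 did not pass. In SUN2KO OCLN was close to the threshold (-1.17 ± 0.47, adjusted p = 0.0579) and MARVELD3 was not (-0.47 ± 0.45, adjusted p = 0.454, edgeR for both). With the SUN2KO and WT libraries fitted alone, 1 of the 22 epithelial genes was called lower.

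**Figure D5:**
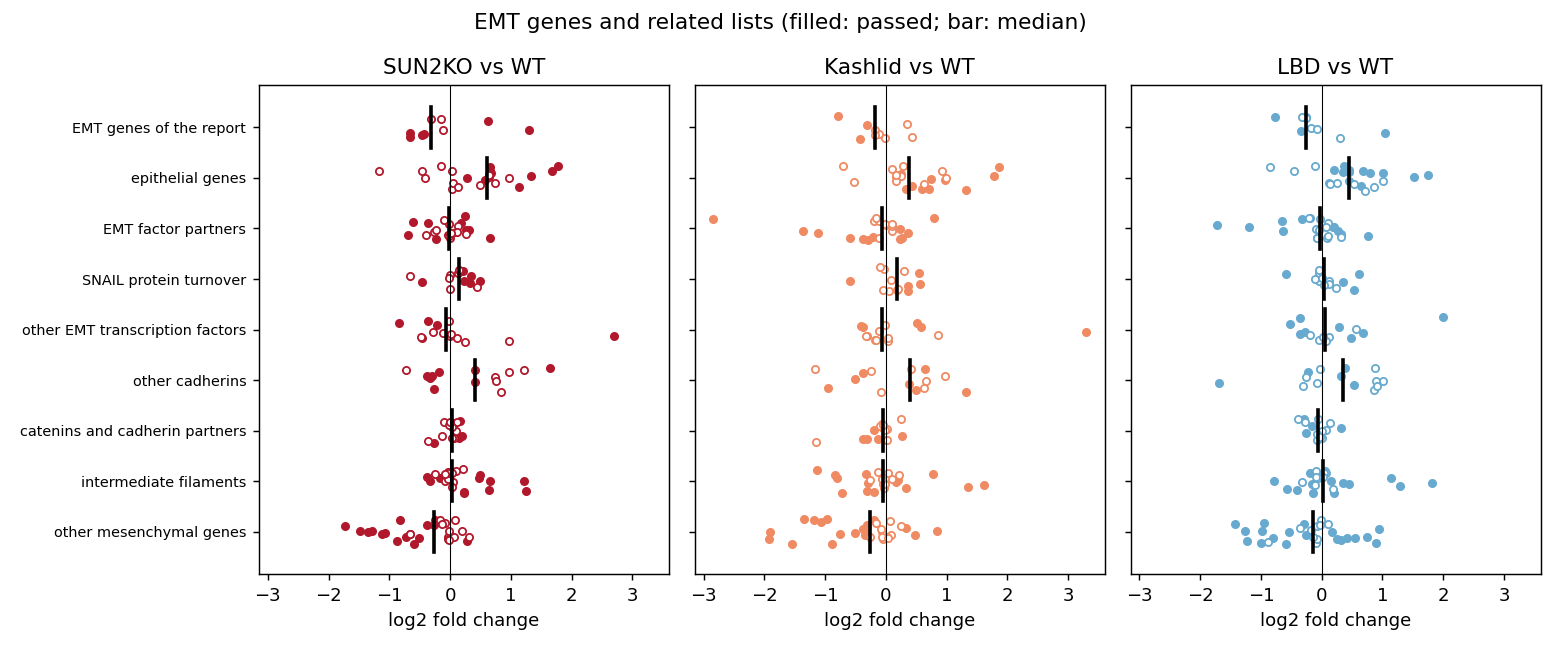
Log2 fold change over WT (horizontal axis) of the tested genes of each list (rows), with panels for SUN2KO, Kashlid and LBD; filled points passed at adjusted p under 0.05 and the bar is the list median. The epithelial row lies mostly right of 0, with medians of 0.61, 0.38 and 0.46.

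Of 29 other tested mesenchymal genes, 15 fell and 1 rose in SUN2KO (median -0.27), 15 fell and 3 rose in Kashlid (median -0.26), and 11 fell and 8 rose in LBD (median -0.14). Those that fell were 51.7%, 51.7% and 37.9% of the list, where 19.1%, 22.7% and 21% of all tested genes fell, and those that rose were 3.45%, 10.3% and 27.6%, where 17.5%, 21.7% and 19% of all rose. Without LBD replicate 2, 5 rose in LBD, and without WT replicate 1, 2 rose in SUN2KO. LUM, the matrix proteoglycan lumican, averaged 27.5 ± 3.26 CPM in SUN2KO, 35.6 ± 2.19 in Kashlid and 37.9 ± 0.401 in LBD, against 90.7 ± 4.73 in WT. PDGFRB, a growth factor receptor of stromal cells, fell in all 3 lines (log2 fold changes -0.88 ± 0.14, -1.90 ± 0.15 and -1.42 ± 0.14), as did FAP, a stromal surface protease (-1.07 ± 0.14, -1.54 ± 0.15 and -1.24 ± 0.14, adjusted p of at most 3.58e-05, edgeR). The fibronectin gene FN1 averaged 293 ± 2.23 CPM in SUN2KO, 720.4 ± 29.6 in Kashlid and 817 ± 59.3 in LBD, against 822 ± 37.9 in WT. It fell in SUN2KO (-1.49 ± 0.05, adjusted p = 2.06e-14) and in Kashlid (-0.19 ± 0.05, adjusted p = 0.00369, edgeR for both). The collagen gene COL5A1 (-1.29 ± 0.06, -0.97 ± 0.06 and -0.80 ± 0.06), the protease inhibitor gene SERPINE2 (-1.35 ± 0.07, -1.07 ± 0.07 and -0.54 ± 0.07) and the smooth muscle actin gene ACTA2 (-0.65 ± 0.24, -0.76 ± 0.24 and -0.99 ± 0.25) fell in all 3 lines, and the collagen gene COL3A1 fell in Kashlid (-1.92 ± 0.44, adjusted p of at most 0.034, edgeR).

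Of 22 tested partners of the EMT factors, 5 rose and 4 fell in SUN2KO (median -0.01), 5 rose and 7 fell in Kashlid (median -0.06), and 5 rose and 6 fell in LBD (median -0.03). The share that rose was 22.7% of the list in each line, where 17.5%, 21.7% and 19% of all tested genes rose, and the share that fell was 18.2%, 31.8% and 27.3%, where 19.1%, 22.7% and 21% of all fell. The list is thus near the background in most of these counts. ID proteins bind E-proteins, the partners of TWIST, and keep them off DNA. ID3 averaged 177 ± 5.58 CPM in SUN2KO, 105 ± 8.57 in Kashlid and 118 ± 2.22 in LBD, against 271 ± 10.1 in WT. ID2 fell in Kashlid (-2.84 ± 0.25, adjusted p = 9.90e-09) and LBD (-1.72 ± 0.21, adjusted p = 2.09e-06, edgeR), and in SUN2KO it did not pass (-0.40 ± 0.19, adjusted p = 0.0996, edgeR). ID1 fell in all 3 (-0.23 ± 0.05, -1.12 ± 0.05 and -0.65 ± 0.05). The E-protein gene TCF4 also fell in all 3 (-0.70 ± 0.14, -0.59 ± 0.14 and -0.63 ± 0.14, adjusted p of at most 0.00219, edgeR). CTBP2, a corepressor that ZEB1 recruits, rose by 0.66 ± 0.06, 0.79 ± 0.06 and 0.76 ± 0.06 in SUN2KO, Kashlid and LBD (adjusted p of at most 1.37e-08, edgeR), and its paralog CTBP1 fell in all 3 (-0.36 ± 0.07, -0.37 ± 0.07 and -0.33 ± 0.07, adjusted p of at most 0.000602, edgeR).

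Among 13 tested genes whose products mark, degrade or stabilise SNAIL family proteins, 5 rose and 1 fell in SUN2KO and in Kashlid, and 3 rose and 1 fell in LBD, with medians of 0.15, 0.19 and 0.04. The share that rose was 38.5% in SUN2KO and in Kashlid and 23.1% in LBD, where 17.5%, 21.7% and 19% of all tested genes rose. The share that fell was 7.69% in each line, where 19.1%, 22.7% and 21% of all fell. BTRC, the ubiquitin ligase subunit that targets phosphorylated SNAIL, rose by 0.50 ± 0.09, 0.56 ± 0.09 and 0.62 ± 0.09, FBXL14, another such subunit, by 0.35 ± 0.13, 0.36 ± 0.13 and 0.53 ± 0.13, and FBXL5 fell (-0.46 ± 0.10, -0.60 ± 0.10 and -0.59 ± 0.10, adjusted p of at most 0.0379, edgeR). PAK1, a kinase of SNAIL, rose in SUN2KO (0.33 ± 0.10) and LBD (0.35 ± 0.10), and SIAH1, a ubiquitin ligase, in Kashlid (0.54 ± 0.18, adjusted p of at most 0.0197, edgeR).

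Of 14 other EMT transcription factors, 1 rose and 4 fell in SUN2KO (median -0.07), 3 rose and 3 fell in Kashlid (median -0.07), and 4 rose and 4 fell in LBD (median 0.05). The share that rose was 7.14%, 21.4% and 28.6%, and the share that fell 28.6%, 21.4% and 28.6%, beside 17.5%, 21.7% and 19% of all tested genes that rose and 19.1%, 22.7% and 21% that fell. FOXC2, a forkhead factor of mesenchyme, fell in all 3 lines (-0.85 ± 0.14, -0.38 ± 0.14 and -0.51 ± 0.14, adjusted p of at most 0.0280, edgeR). NFATC4, a calcium-dependent factor, averaged 2.67 ± 0.711 CPM in SUN2KO, 4.05 ± 0.659 in Kashlid and 1.66 ± 0.870 in LBD, against 0.406 ± 0.0692 in WT. SOX4, a factor of progenitor cells, fell in SUN2KO (-0.36 ± 0.07) and LBD (-0.28 ± 0.07), the ETS factor gene ETV5 in SUN2KO (-0.47 ± 0.10) and TEAD1, the DNA-binding partner of YAP, in Kashlid (-0.42 ± 0.06) and LBD (-0.36 ± 0.06, adjusted p of at most 0.00459, edgeR). SOX9, a chondrocyte and progenitor factor, and RUNX2, an osteoblast factor, rose in Kashlid (0.52 ± 0.17 and 0.58 ± 0.14) and LBD (0.69 ± 0.17 and 0.48 ± 0.14, adjusted p of at most 0.0202, edgeR).

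Of 14 other tested cadherins, 3 rose and 5 fell in SUN2KO, 4 rose and 3 fell in Kashlid, and 3 rose and 2 fell in LBD, with medians of 0.41, 0.39 and 0.36. These medians draw on genes with few reads that had positive values and did not pass, CDH1 in SUN2KO and LBD among them. Part of the list, CDH1 included, is also counted among the epithelial genes. The share that rose was 21.4%, 28.6% and 21.4%, beside 17.5%, 21.7% and 19% of all tested genes, and the share that fell 35.7%, 21.4% and 14.3%, beside 19.1%, 22.7% and 21%. CDH5, the cadherin of endothelium, averaged 6.74 ± 1.03 CPM in SUN2KO, 1.11 ± 0.0113 in Kashlid and 1.78 ± 0.748 in LBD, against 2.15 ± 0.178 in WT. It passed as higher in SUN2KO (1.65 ± 0.26, adjusted p = 4.8e-05) and as lower in Kashlid (-0.95 ± 0.34, adjusted p = 0.0281, edgeR for both). CDH24, an atypical cadherin, rose by 0.40 ± 0.12, 0.64 ± 0.12 and 0.54 ± 0.12 (adjusted p of at most 0.0103, edgeR), and CDH13, a cadherin anchored by a lipid tail, fell in SUN2KO (-0.27 ± 0.08, adjusted p = 0.0137) and Kashlid (-0.51 ± 0.09, adjusted p = 5.43e-05, edgeR). The multi-pass cadherin gene CELSR2 rose in all 3 (0.42 ± 0.08, 0.49 ± 0.08 and 0.39 ± 0.08) and FAT1, a giant protocadherin, fell in all 3 (-0.34 ± 0.05, -0.38 ± 0.05 and -0.23 ± 0.05), while CELSR3 fell in SUN2KO (-0.29 ± 0.06) and rose in Kashlid (0.38 ± 0.06) and LBD (0.33 ± 0.06), and FAT4 fell in SUN2KO (-0.39 ± 0.12, adjusted p of at most 0.019, edgeR).

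Of 15 catenins and cadherin partners, 3 rose and 1 fell in SUN2KO, 1 rose and 4 fell in Kashlid, and 1 rose and 3 fell in LBD, around medians of 0.04, -0.05 and -0.05. The share that rose was 20%, 6.67% and 6.67%, beside 17.5%, 21.7% and 19% of all tested genes, and the share that fell 6.67%, 26.7% and 20%, beside 19.1%, 22.7% and 21%. The beta-catenin gene CTNNB1 did not pass in any of them (log2 fold changes 0.06, -0.05 and -0.07), and the plakoglobin gene JUP fell in Kashlid (-0.32 ± 0.04) and in LBD (-0.15 ± 0.04, adjusted p of at most 0.0081, edgeR). PTPN1, a phosphatase found with cadherins, fell in all 3 (-0.27 ± 0.05, -0.38 ± 0.05 and -0.29 ± 0.05) and NUMB, an endocytic adaptor, rose in all 3 (0.19 ± 0.06, 0.26 ± 0.07 and 0.31 ± 0.06). The alpha-catenin gene CTNNA1 (0.15 ± 0.04) and the plakophilin gene PKP4 (0.17 ± 0.06) rose in SUN2KO, and the alpha-catenin-like gene CTNNAL1 fell in Kashlid (-0.19 ± 0.07) and LBD (-0.27 ± 0.07, adjusted p of at most 0.0418, edgeR).

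Among 23 tested intermediate filament genes and partners, 8 rose and 4 fell in SUN2KO, 6 rose and 8 fell in Kashlid, and 7 rose and 6 fell in LBD, with medians of 0.03, -0.05 and 0.03. The share that rose was 34.8%, 26.1% and 30.4%, beside 17.5%, 21.7% and 19% of all tested genes, and the share that fell 17.4%, 34.8% and 26.1%, beside 19.1%, 22.7% and 21%. KRT15, a keratin of basal cells, rose in all 3 (1.22 ± 0.27, 1.35 ± 0.27 and 1.82 ± 0.26), as did DES, the desmin of muscle (1.24 ± 0.29, 1.61 ± 0.28 and 1.29 ± 0.29, adjusted p of at most 0.00196, edgeR). Both were low, at 1.83 and 1.37 CPM in WT. KRT18, the partner of KRT8 in simple epithelia, averaged 702 ± 0.0787 CPM in SUN2KO, 564 ± 48.2 in Kashlid and 608 ± 0.484 in LBD, against 448 ± 7.43 in WT, and rose by 0.65 ± 0.05, 0.33 ± 0.05 and 0.44 ± 0.05 (adjusted p of at most 1.39e-05, edgeR). KRT8 rose by 0.66 ± 0.05 in SUN2KO and by 0.35 ± 0.05 in LBD, and did not pass in Kashlid (0.10 ± 0.05, adjusted p = 0.0780, edgeR). Other keratin genes fell: KRT81 in all 3 lines (-0.38 ± 0.06, -1.13 ± 0.06 and -0.58 ± 0.06) and KRT7 in Kashlid (-0.83 ± 0.06) and LBD (-0.40 ± 0.06, adjusted p of at most 2.54e-05, edgeR). SYNM, a filament protein that assembles with vimentin, fell in all 3 (-0.32 ± 0.07, -0.81 ± 0.07 and -0.79 ± 0.07), and KRT17, another basal keratin, rose in all 3 (0.48 ± 0.07, 0.77 ± 0.07 and 1.14 ± 0.07, adjusted p of at most 0.000653, edgeR).

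The genes whose log2 CPM followed each member most closely over the 8 libraries were found among genes with a mean of at least 5 CPM. For VIM they were RPP25, POMGNT1 and NUCB1 (Pearson r = 0.991, 0.988 and 0.986), and for ZEB1 CKMT1B, CPSF4 and MKRN1 (0.991, 0.988 and 0.981). TWIST1 was followed by LGMN and ITGB5 (0.996 and 0.979) and SNAI2 by RASSF8, PSAT1 and ZZZ3 (0.989, 0.978 and 0.974). For SNAI1 they were RALGAPA2, LINC01001 and ANAPC13 (0.973, 0.970 and 0.954), for TWIST2 WDR75, MAP3K4 and SLC7A6 (0.994, 0.978 and 0.977), and for CDH4 TAF9, FAM178A and TAF11 (0.984, 0.977 and 0.970). For ZEB2 the closest gene was NR4A1 (0.929) and for CDH2 it was DNAJC25 (0.975). The 8 points come from 4 groups of 2, so such an r largely follows the 4 group levels and the best of many genes will be high.

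Whether the authors counted by strand is not given in the sources used here. Reads of a gene and of its antisense partner therefore cannot be told apart. VIM-AS1 had 5 to 22 reads per library, ZEB1-AS1 39 to 69, and ZEB2-AS1 had 0.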

How the data were processed

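The authors deposited counts of reads per gene for 8 RNA-seq libraries, and tables of log2 fold changes with p-values and adjusted p-values. Per the labels, total RNA was made into libraries with the NEBNext Ultra kit and read paired-end. The submitters' processing notes name Trim Galore, STAR 2.7.1a, bedtools 2.24.0, HTSeq, DESeq2 and hg19. The annotation version is not given in the sources used here. Another 12 per-library columns carry no sample label and were not used. Of 25369 genes, 14016 passed edgeR's filter (minimum count 10).

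Counts were fitted in edgeR 4.0.16 (R 4.3.3, limma 3.58.1) by quasi-likelihood with TMM scaling and 1 term per group over all 8 libraries (4 residual degrees of freedom). All 6 comparisons were tested with Benjamini-Hochberg adjustment over all tested genes at 0.05. SE is the log2 fold change divided by the root of F. DESeq2 1.42.0 was an alternative. Scripts were tested on simulated data. Pairing of libraries by replicate number was not taken as established (see the closing section), and the main fit has no term for it. Total counts were 16570099 to 18814795, which sets the precision of genes with few reads. All members are named. From each list, the 4 called genes of largest change with a mean of at least 1 CPM are named in each comparison, and 2 where none passed; CTNNB1, OCLN and MARVELD3 lie outside this rule and were chosen after their values were seen. Members and lists were chosen with earlier results of these data known. For each tested member the 3 genes of most similar pattern were sought, and for ZEB2 and CDH2 the first is given. Of the genes these rules pick, 2 are not reported here.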

Additional observations from a re-analysis of the deposited data

How the results depend on the processing

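Each fit was repeated with 1 choice changed. Where a library was left out, the lone library left in its group was assumed to vary like the other groups. The member count changed as follows. With the neighbours' median taken out, 3 members were called in SUN2KO over WT, 0 in Kashlid over WT, 0 in Kashlid over SUN2KO and 1 in LBD over Kashlid. With a 2-fold limit the counts were 1 in SUN2KO, 0 in Kashlid and 1 in LBD over WT, and 0 in Kashlid over SUN2KO and in LBD over SUN2KO. In Kashlid over SUN2KO, DESeq2 and the 2 groups alone each called 0. In LBD over SUN2KO, no filter and the 2 groups alone each called 2. In LBD over Kashlid, no filter and the window median each called 2. The labels' replicate numbers gave deviations correlated at 0.17 to 0.19 among the lines but -0.05 to 0.09 with WT over 10866 genes, and with 2 numbers per group and WT not following, pairing was not taken as established. A fit with the replicate block called 1 member in LBD over Kashlid (SNAI2, -0.58, adjusted p = 0.0369, edgeR). Leaving out 1 library gave 5 to 7 calls in SUN2KO over WT, 2 to 4 in Kashlid over WT, 2 to 4 in LBD over WT, 0 to 1 in Kashlid over SUN2KO, 0 to 2 in LBD over SUN2KO and 0 to 2 in LBD over Kashlid. Other mesenchymal genes higher in LBD numbered 5 to 8, and in SUN2KO 1 to 2. With the 2 groups alone, 1 epithelial gene was lower in SUN2KO.

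Signs turned as follows on the log2 scale. On library size alone ZEB2 in Kashlid over WT was 0.031. With the window median out, ZEB1 was 0.16, 0.33 and 0.28 and VIM 0.068, 0.022 and 0.42 in SUN2KO, Kashlid and LBD over WT, SNAI2 in Kashlid 0.10, TWIST2 in Kashlid over SUN2KO 0.033, VIM there -0.046, and ZEB2 in LBD over SUN2KO 0.0040. With the neighbours' median out, SNAI2 was 0.066 in SUN2KO and 0.15 in Kashlid, ZEB1 0.076, 0.23 and 0.25, VIM 0.076, 0.096 and 0.33, CDH2 0.0024 in SUN2KO and 0.11 in LBD, all over WT, ZEB2 in LBD over SUN2KO 0.032 and ZEB1 in LBD over Kashlid 0.020. Leaving out 1 library turned the sign of some values that were not called with all 8 libraries. Their ranges in Kashlid over SUN2KO were CDH2 -0.10 to 0.032, VIM -0.088 to 0.10 and SNAI2 -0.23 to 0.44. In Kashlid over WT they were SNAI2 -0.55 to 0.12 and ZEB2 -0.094 to 0.070. ZEB2 ranged from -0.18 to 0.062 in LBD over SUN2KO, and CDH2 from -0.17 to 0.035 in LBD over WT. In LBD over Kashlid, TWIST2 ranged from -0.13 to 0.025 and SNAI1 from -0.33 to 0.030. The causes were not tested. Of the single-gene values under alternatives, 819 kept direction and side of the threshold, 33 lost the call, 26 gained it and 34 turned sign. CDH4, CDH1 and TWIST1 are limited by depth.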
